A study of Mus musculus with 4 samples.

Results

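The genes described here encode the enzymes that write and erase chemical marks on histones and DNA, together with close relatives that share their names. They were taken by symbol from the array's probe annotation: Hdac, Sirt, Kdm, Jmjd, Jarid, Setd, Setdb, Suv, Prmt, Myst, Ezh, Dnmt and Tet genes, each with its number. This gave 61 of the 16675 genes tested, each read from the probe with the highest mean over the 4 arrays, and no Kdm-named or Tet gene was among them. The samples were whole hearts of mouse embryos at embryonic day 9.5, of a C57bl/6 x129 hybrid strain, pooled and profiled on 1-colour arrays with Cy5-labelled amplified RNA. There were 2 pools of Salv CKO hearts, in which Salvador (Sav1), a scaffold of the Hippo kinase cascade, was conditionally deleted, and 2 control pools labelled wild-type. The comparison asked which genes respond to loss of Hippo signalling while the heart forms. Neither the Cre line nor the hearts per pool nor the embryos' sex is stated in the labels, and the pools are described as biological replicates.

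Histone tails carry acetyl and methyl groups that are added by writers, removed by erasers and bound by readers. Acetylation, and methylation at H3K4 and H3K36, mark transcribed chromatin, while methylation at H3K9, H3K27 and H4K20 and of CpG sites in DNA mark silent or compacted chromatin. In the embryonic heart these enzymes work with transcription factors such as Mef2, which class IIa histone deacetylases hold in a repressed state, and the Polycomb enzyme Ezh2 keeps non-cardiac genes silent. The Hippo pathway acts on transcription through Yap, which binds DNA together with Tead factors.

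Promoter windows of 3 genes are shown because they match search patterns used here for the factors named above. The class IIa deacetylase genes Hdac5, which was lower in Salv CKO, and Hdac9 each match a loose Mef2 pattern. This pattern is CTA and TAG parted by any 4 bases, so a match need not be a Mef2 site. The 4 bases are TTTT in Hdac5 and GCTT in Hdac9. The window of the acetyltransferase gene Myst1 has the Tead motif GGAATG at 2 places. Capitals mark these matches and the E-box CACGTG. Each window runs 5′ to 3′ on the gene's strand from 250 bases before to 50 after a RefSeq start site (GRCm38.p6). The windows lie at chr11:102230123-102230422 (minus strand) for Hdac5, chr12:34528840-34529139 (minus strand) for Hdac9 and chr7:127912764-127913063 (plus strand) for Myst1. The other window of Hdac9, at chr12:34917046-34917345, has no match to the Mef2 pattern. That of Myst1, at chr7:127912267-127912566, has no GGAATG. It lies upstream of the Myst1 window shown, so both GGAATG matches are downstream of the start site of this other window.
Hdac5: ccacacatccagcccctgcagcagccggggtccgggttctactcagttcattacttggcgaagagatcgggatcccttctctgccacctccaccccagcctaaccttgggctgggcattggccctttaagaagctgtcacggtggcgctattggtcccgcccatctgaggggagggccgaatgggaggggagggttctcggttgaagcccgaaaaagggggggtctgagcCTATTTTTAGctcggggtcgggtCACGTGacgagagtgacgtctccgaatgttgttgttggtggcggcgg
Hdac9: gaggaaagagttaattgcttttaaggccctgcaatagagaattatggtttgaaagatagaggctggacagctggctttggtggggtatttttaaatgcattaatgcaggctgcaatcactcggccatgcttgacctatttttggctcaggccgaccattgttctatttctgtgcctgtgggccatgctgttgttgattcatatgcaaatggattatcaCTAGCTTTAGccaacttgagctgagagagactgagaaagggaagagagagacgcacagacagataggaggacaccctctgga
Myst1: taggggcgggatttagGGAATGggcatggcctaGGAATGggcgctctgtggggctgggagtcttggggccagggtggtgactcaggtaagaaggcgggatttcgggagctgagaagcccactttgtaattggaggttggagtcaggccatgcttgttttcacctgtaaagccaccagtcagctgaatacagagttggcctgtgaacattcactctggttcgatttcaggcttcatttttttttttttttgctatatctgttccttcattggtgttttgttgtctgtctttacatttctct

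RefSeq windows were found for 53 of the 61 genes, 75 windows in all. On either strand, the Mef2 pattern was in 3 of these windows (4.0%, those of Hdac5, Hdac9 and Hdac2) and in 3.69% of all 32851 windows. GGAATG was in 8 of 75 (10.7%) and in 14.7% of all windows, CACGTG in 7 (9.33%) and 7.15%, the hypoxia-response core ACGTG, which overlaps CACGTG, in 20 (26.7%) and 19.6%, and the cyclic AMP response element TGACGTCA in 1 (1.33%) and 1.79%. The Mef2 pattern and the E-box were added after the sequences had been seen. The 10 windows of the 6 genes past the threshold below held the E-box and the Mef2 pattern once each, both in Hdac5, and no GGAATG. The enzyme genes' windows had a median of 21 CpG sites and 61.7% G and C, against 7 and 52.7% over all windows.

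All values below are log2 intensities after quantile normalisation. Differences are Salv CKO minus control with limma's standard error, n = 2 pools per group, and a gene was called at a Benjamini-Hochberg adjusted p under 0.05 over all 16675 genes. A probe counted as above background at a log2 intensity over 4. Each array carried 29922 probes, with median deposited intensities of 71.1 and 76.1 for Salv CKO and 77.5 and 101 for control. Sav1 was at 9.19 and 9.13 in Salv CKO and 9.56 and 9.30 in control (-0.27 ± 0.13, limma adjusted p = 0.266), and where its probe lies relative to the deleted part is not stated.

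In the same pools some genes in the fixed lists of cell type markers also moved. Of 12 heart muscle markers 5 fell and 0 rose. Their summed linear intensity was 401788 and 408384 in Salv CKO against 444484 and 492273 in control, but Myh6, Myl2, Myl3, Myl4 and Actc1 were saturated on 2 or more arrays. Over the 7 markers saturated on no array, of which 4 fell, the sums were 123828 and 126209 against 149073 and 185145. Of 7 endothelial markers 4 fell (sums of 10825 and 10113 against 18750 and 18126), and of 5 primitive red cell markers 2 fell. The red cell sums were 104815 and 104325 against 124903 and 125339, and 43635 and 41052 against 61622 and 63542 without Hba-x, which was saturated on 3 arrays. Of 8 neural markers 3 rose while Nes fell (6004 and 5950 against 3595 and 3685), of 6 neural crest markers 4 rose (49132 and 49125 against 13966 and 13633), and of 6 somite markers 3 rose (3627 and 3620 against 510 and 462). Most of the neural crest sums came from 1 gene, Crabp1, at 15.53 in each Salv CKO pool and 13.7 in each control pool. Most of the somite sums came from Tcf15. Of 6 endoderm markers 3 rose (6993 and 6896 against 2902 and 3027) and of 5 epicardial ones 2 (2182 and 2421 against 1240 and 1195). Not above background in either group were Epb4.2, Foxd3, Myf5, Wt1 and Tcf21, nor was Meox2 in control or Tbx18 in Salv CKO. Of the S phase genes 1 of 10 rose, Pcna, a share near the 10.6% of all genes, and of 6 mitosis genes 0 were called. The S phase sums were 38519 and 37631 in Salv CKO against 32320 and 32333 in control. The differences of the S phase genes ran from -0.20 (Rrm1) to 0.52 (Pcna). The part of these shifts in the enzyme genes' values was not tested, and in pooled whole hearts fewer cells of a type and less RNA per cell cannot be told apart. Nor, for the lists that rose, can more RNA per cell be told apart from more cells of a type. Such cells could be of the heart or of other tissue taken with it.

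Of the 61 enzyme genes, 6 were called (9.84%), a share near the 10.6% of all genes tested. Higher in Salv CKO were 2, the demethylase genes Jmjd2a and Jmjd1a (all genes: 4.92%), and lower were 4, the deacetylase gene Hdac5, the Set-domain genes Setd5 and Setd8, and, on the probe used, the demethylase gene Jarid1c (all genes: 5.7%). The other Jarid1c probe was higher in Salv CKO, as described below, and without that gene 2 of 60 were higher and 3 lower. By kind of enzyme, 1 of 25 writers was called, 4 of 28 erasers, 0 of 2 catalytically inactive cofactors and 1 of 6 genes without an assigned mark. The groups did not overlap for 29 of the 61 genes (47.5%), with Salv CKO above for 13 and below for 16, against 54.2% of all genes. The median difference of the enzyme genes was -0.07, that of all genes -0.04, and 47 of 61 differed by less than 0.5. Above background on all 4 arrays were 55 of the 61. Several probes were present for 13 enzyme genes, and 11 of these had at least 2 probes above background on average. For 4 of the 11 such probes differed in sign, so a difference from 1 probe need not hold for the gene.

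**Figure D1:**
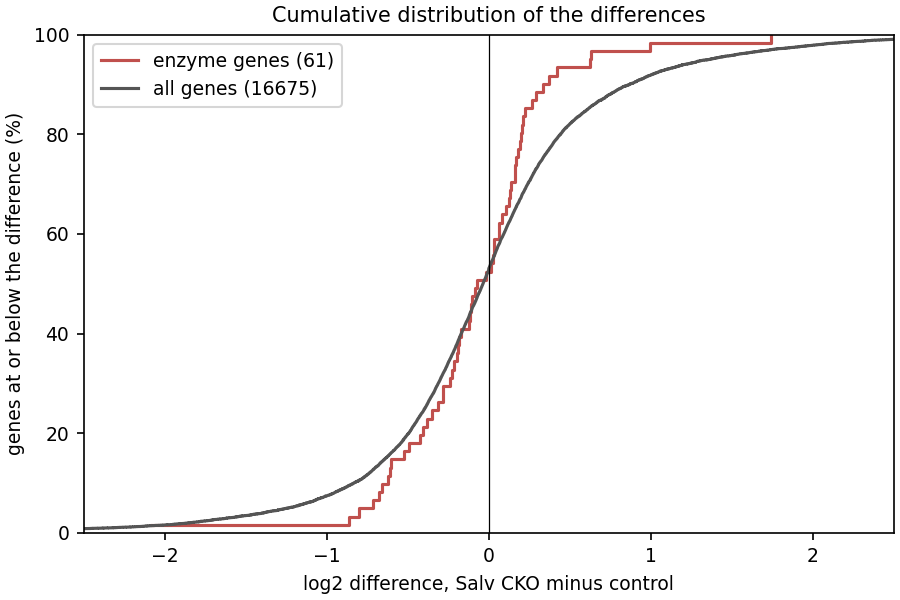
Cumulative share of genes (y axis, percent) at or below each log2 difference, Salv CKO minus control (x axis), for the 61 enzyme genes (red) and all 16675 genes (grey). Both curves cross the 50% level close to 0, at medians of -0.07 and -0.04.

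Permuting 2 against 2 pools exactly gives no p under 0.333 for a single gene, so the calls depend on limma's variance estimate, which draws on all genes. With any 1 of the 4 arrays left out, limma called 0 of the 16675 genes (3170 to 3428 at an unadjusted p under 0.05) and 0 enzyme genes (10 to 13), while the 6 called genes kept their direction.

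**Figure D2:**
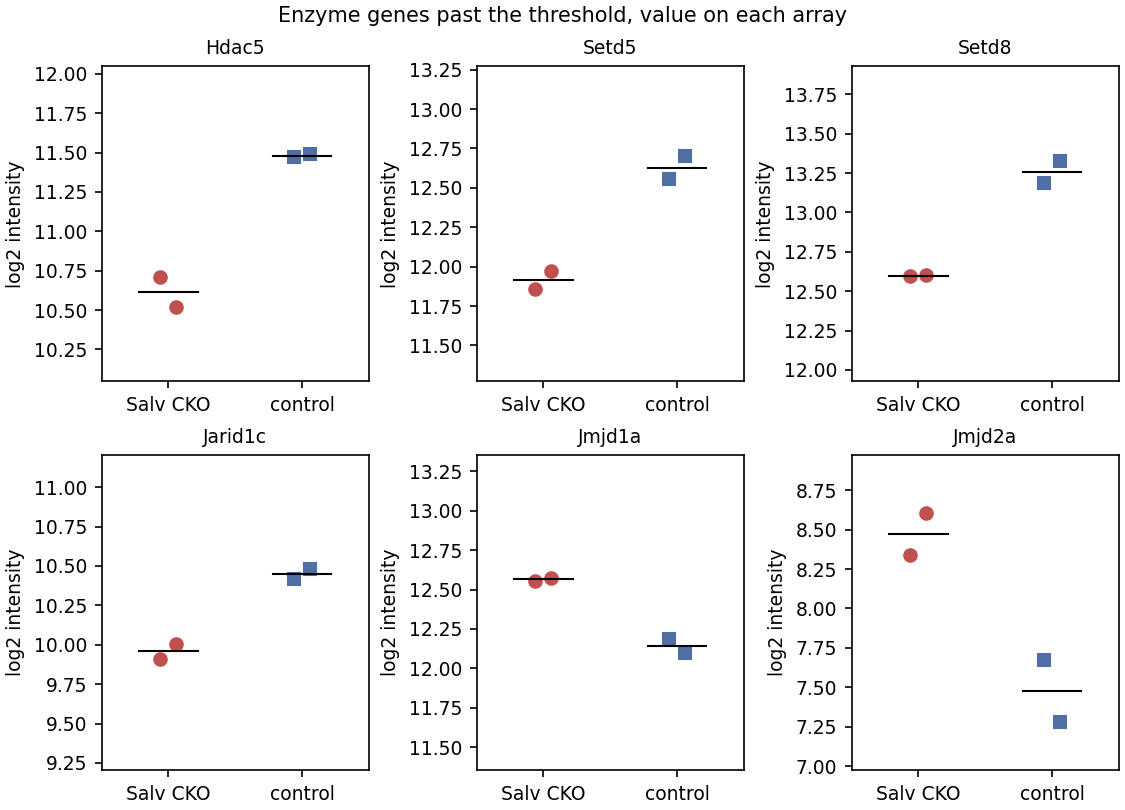
Log2 intensity (y axis) of the 6 called enzyme genes on each array, Salv CKO (red circles) left of control (blue squares), with horizontal lines at the group means (n = 2 pools). Every y axis spans the same range of 2 log2 units, and in each panel the groups are apart, with Salv CKO lower for Hdac5, Setd5, Setd8 and, on the probe plotted, Jarid1c, and higher for Jmjd1a and Jmjd2a.

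Among the histone deacetylases 1 of 9 fell. Hdac5, a class IIa enzyme that binds Mef2 and shuttles out of the nucleus on phosphorylation, was at 10.71 and 10.52 in Salv CKO pools and 11.47 and 11.49 in control pools. The groups did not overlap and lay farther apart than the pools of either group, and the gene was 1.82-fold lower in Salv CKO (-0.86 ± 0.09, limma adjusted p = 0.0122). The other class IIa genes were not called: Hdac4 was at 6.49 and 6.29 against 6.80 and 6.37 in control. Hdac9, with 1 promoter window shown above, was dim, at 5.25 and 4.44 against 4.78 and 3.65. Its difference was 0.63 (95% interval -0.94 to 2.20), with 1 control array below the background limit. Of the heart muscle markers 5 of 12 fell as Hdac5 did, and the others were not called, among them Myl7 at 0.35. Of the endothelial markers 4 of 7 fell too, and 2 of 5 red cell markers (all genes: 5.7% lower). Some neural, neural crest, somite, endoderm and epicardial markers rose instead. The part of these shifts in the Hdac5 value was not tested.

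Of the class I enzymes, which sit in the Sin3, NuRD and NCoR corepressor complexes or, as Hdac8 does, deacetylate cohesin, none was called. Hdac2 gave -0.07 (95% interval -0.29 to 0.15), Hdac3 gave -0.18 and Hdac8 gave 0.13, each with overlapping groups. The class IIb genes both lay lower in Salv CKO without a call. Hdac10, a polyamine deacetylase, was at 9.55 and 9.95 in Salv CKO against 10.37 in each control (-0.62 ± 0.15, limma adjusted p = 0.0676). It was called, as lower, under each of the other scalings, but not with probe means or without the intensity trend. Over all genes each of these scalings also moved the split of higher to lower calls toward lower ones. That split was 821 to 951 here and 229 to 3101 with the values as deposited. Hdac6, the tubulin deacetylase of the cytoplasm, gave -0.38 and Hdac11, the single class IV enzyme, 0.29. The probe annotation used here had no gene named Hdac1 or Hdac7.

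The sirtuins, NAD-dependent deacylases, gave 0 of 7 calls. Their differences ran between -0.35 for the mitochondrial Sirt4 and 0.06 for Sirt1 and Sirt2, and the groups overlapped for 6 of the 7. Sirt3, a mitochondrial deacetylase and the brightest of the family, was at 12.35 and 12.19 in Salv CKO and 12.35 and 12.40 in control, and the 95% interval of its difference was -0.32 to 0.11. Sirt3 and Sirt4 fell past the threshold with the values as deposited, where the median of all genes was itself -0.41.

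The 4 Myst acetyltransferases, writers of histone acetylation, had no call. Myst1 (Kat8, or Mof) was at 10.77 and 10.34 in Salv CKO and 10.25 and 10.11 in control (0.37 ± 0.16, limma adjusted p = 0.231). The promoter window shown above has the Tead motif at 2 places, both downstream of the start site of the other Myst1 window, which has none. Myst2 (Kat7, or Hbo1) gave 0.17, and Myst3 (Kat6a) and Myst4 (Kat6b), the Moz and Morf enzymes, gave 0.03 and 0.14. All 4 differences were above 0 after quantile normalisation and with 75th percentiles, 2 of 4 with arrays centred on their medians and 0 of 4 with the values as deposited.

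**Figure D3:**
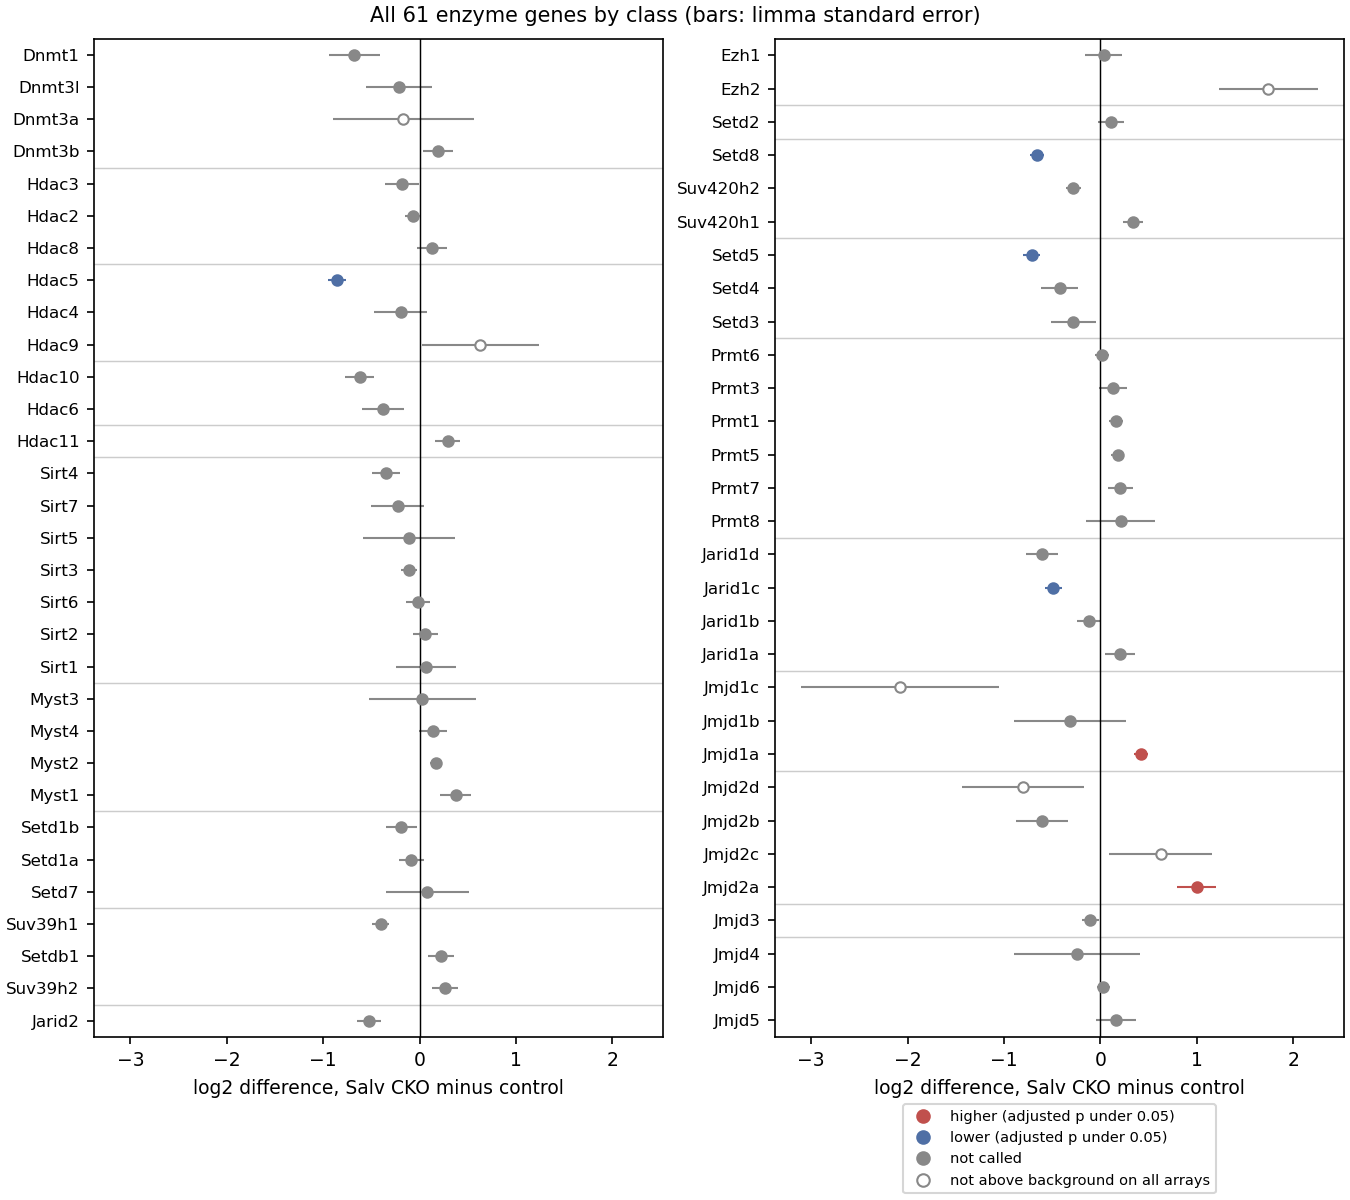
Log2 difference, Salv CKO minus control (x axis), of all 61 enzyme genes, ordered by enzyme class (thin lines part the classes), with bars of 1 limma standard error. Red and blue mark the 2 higher and 4 lower calls, and open circles the 6 genes not above background on all 4 arrays, among which Ezh2 and Jmjd1c lie farthest from 0.

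DNA methyltransferases gave 0 of 4 calls. Dnmt1, which copies CpG methylation onto the new strand after replication, was at 6.34 and 6.02 in Salv CKO and 7.02 and 6.69 in control, with both Salv CKO pools the lower (-0.68 ± 0.27, limma adjusted p = 0.195). Of the de novo enzymes, Dnmt3b was at 7.91 and 7.84 against 7.74 and 7.63, and Dnmt3a was above background on only 1 array of each group. Dnmt3l, their inactive cofactor, overlapped between the groups (-0.22).

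Of the 12 lysine methyltransferases with an assigned mark 1 fell, Setd8 (Kmt5a), the writer of monomethylated H4K20, a mark tied to the cell cycle and chromatin compaction. It was at 12.59 and 12.60 in Salv CKO and 13.19 and 13.33 in control. The pools of each group lay close together and the groups far apart, and Setd8 was 1.58-fold lower (-0.66 ± 0.07, limma adjusted p = 0.0134). Its second probe gave -0.51 ± 0.09 and the remaining one, much dimmer on every array, 0.06 ± 0.27. The mean of the 3 probes was -0.37 and was not called. The enzymes that extend this mark gave opposite signs without a call. Suv420h1 (Kmt5b) was at 9.36 and 9.47 against 9.07 and 9.09 in control, and Suv420h2 (Kmt5c) at 12.08 and 12.20 against 12.47 and 12.37. Suv420h1 thus lay 0.34 above and Suv420h2 0.28 below control, each with groups that did not overlap (limma adjusted p = 0.117 and 0.0995).

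H3K9 writers gave 0 of 3 calls. Suv39h1, X-linked, and Suv39h2 trimethylate H3K9 at pericentric heterochromatin. Suv39h1 was at 10.62 and 10.73 in Salv CKO and 11.13 and 11.02 in control, a difference of -0.40 ± 0.09 just short of the threshold (limma adjusted p = 0.0539). It was called lower under each of the other scalings, which moved the calls over all genes toward lower ones too. With probe means or without the intensity trend Suv39h1 was not called. Suv39h2 lay above control in both pools (0.26 ± 0.13, with 0.63 ± 0.23 on its next probe, neither called), while Setdb1, which silences retroelements, gave 0.22 with overlapping groups.

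Among the H3K27 genes Ezh2, the catalytic subunit of Polycomb repressive complex PRC2, was at 6.23 and 6.26 in both Salv CKO pools and at 3.88 and 5.13 in control. Of the control arrays 1 held it below the background limit, and the difference of 1.74 ± 0.51 was not called (limma adjusted p = 0.107). It was called, as higher, with genes of low mean intensity left out or with a floor at an intensity of 64, which reduced the difference to 0.25. That floor lies above both control values and makes them identical, so the call under it leaves out the spread between the control pools. Its relative Ezh1 gave 0.03 (95% interval -0.46 to 0.53). Jarid2, which recruits PRC2 and has no demethylase activity, was at 8.13 and 8.27 in Salv CKO and 8.73 and 8.72 in control (-0.53 ± 0.13, limma adjusted p = 0.0671). The eraser of this mark, Jmjd3 (Kdm6b), differed by -0.10 without a call, at 9.80 and 9.81 against 9.92 and 9.89.

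The H3K4 writers Setd1a and Setd1b, of the Compass complexes, and Setd7 gave differences of -0.08, -0.19 and 0.08 with overlapping groups, and Setd2, which trimethylates H3K36, gave 0.11. Of the 3 Set-domain proteins without an assigned histone mark 1 fell. Setd5, whose own catalytic activity is unsettled, was at 11.86 and 11.97 in Salv CKO and 12.55 and 12.70 in control. The groups were well apart, with Salv CKO 1.64-fold lower (-0.71 ± 0.09, limma adjusted p = 0.0154). Setd4 gave -0.42 and Setd3, a histidine methyltransferase of actin, -0.28, neither called.

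Arginine methyltransferases gave 0 of 6 calls, with differences between 0.02 (Prmt6) and 0.21 (Prmt7 and Prmt8). Prmt5, which makes symmetric dimethylarginine with its partner Wdr77, was at 14.41 and 14.31 in Salv CKO and 14.19 and 14.17 in control (0.18 ± 0.07, limma adjusted p = 0.172). Prmt1, the main asymmetric enzyme, was saturated on 1 Salv CKO array and both control arrays, so no size is given for it. The differences of the other 5 were all above 0 after quantile normalisation, as were 4 of 5 with arrays scaled by 75th percentiles, 1 of 5 with arrays centred on their medians and 0 of 5 with the values as deposited.

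Of 12 lysine demethylases 3 were called (25.0%, against 10.6% of all genes): 2 rose, and Jarid1c, whose probes disagree, had no settled direction. Without Jarid1c 2 of 11 were higher and 0 lower, and nothing particular to the demethylases is read from these counts. Jmjd2a (Kdm4a), an eraser of trimethylated H3K9 and H3K36, was at 8.34 and 8.60 in Salv CKO and 7.67 and 7.28 in control. Both Salv CKO pools lay above both controls and the gene was 2.0-fold higher (1.00 ± 0.21, limma adjusted p = 0.0472), which was no longer past the threshold in a fit with the replicate number as a block (limma adjusted p = 0.0566, and 0.0162 to 0.317 over the 13 alternatives, 3 of which called it). A second probe gave a like value, 7.99 and 7.95 against 7.04 and 7.17 (0.86 ± 0.15), and the remaining probe was not above background on any array. The other members of this subfamily were not called, Jmjd2b at -0.61 and the dim Jmjd2c and Jmjd2d, each below background on 1 array, at 0.63 and -0.80.

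Jmjd1a (Kdm3a), which removes mono- and dimethyl groups from H3K9 and is known as a hypoxia-induced gene, was at 12.56 and 12.57 in Salv CKO and 12.19 and 12.10 in control. The pools of each group lay close together and the gene was 1.34-fold higher (0.42 ± 0.07, limma adjusted p = 0.0279), though the difference was -0.09 with the values as deposited. It was 0.18 with arrays centred on their medians and 0.32 with 75th percentiles, neither called. Jmjd1b (Kdm3b) gave -0.32 with overlapping groups. Jmjd1c was not above background on any array on the probe used. The hydroxylases Jmjd4, Jmjd5 (Kdm8) and Jmjd6 gave -0.24, 0.16 and 0.03 with overlapping groups.

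The Jarid1 (Kdm5) demethylases erase di- and trimethylated H3K4, and Jarid1c and Jarid1d are an X- and Y-linked pair. Jarid1c was at 9.91 and 10.01 in Salv CKO and 10.42 and 10.48 in control on the probe used here (-0.49 ± 0.09, limma adjusted p = 0.0345). Its other probe went the opposite way, at 10.39 and 10.43 in Salv CKO and 9.62 and 9.59 in control (0.81 ± 0.08, limma adjusted p = 0.0163 over all probes), and the mean of both was 0.16 without a call. No direction can therefore be given for the gene as a whole. Jarid1d was at 8.27 and 8.37 in Salv CKO and 9.11 and 8.75 in control (-0.61 ± 0.16, limma adjusted p = 0.0897). The autosomal Jarid1a and Jarid1b gave 0.20 and -0.12.

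Another Y-linked gene, the translation factor Eif2s3y, was at 8.96 and 8.74 in Salv CKO and 10.02 and 9.92 in control and fell by 1.12 ± 0.12 (limma adjusted p = 0.0122). Uty and Zfy1 were not above background on any array and Usp9y on 1 of 4. The X-linked relative Eif2s3x gave 0.35 ± 0.11 without a call, and Utx (Kdm6a), the X-linked H3K27 demethylase outside the symbols chosen here, rose (9.66 and 9.86 against 9.13 and 9.07, 0.66 ± 0.11, adjusted p = 0.0315). The proportion of male embryos in the pools is not given, and its part in the Jarid1c, Jarid1d and Utx values was not tested. These genes were looked up after the Jarid1 values had been seen, apart from Utx and Uty, which stand in a fixed list.

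**Figure D4:**
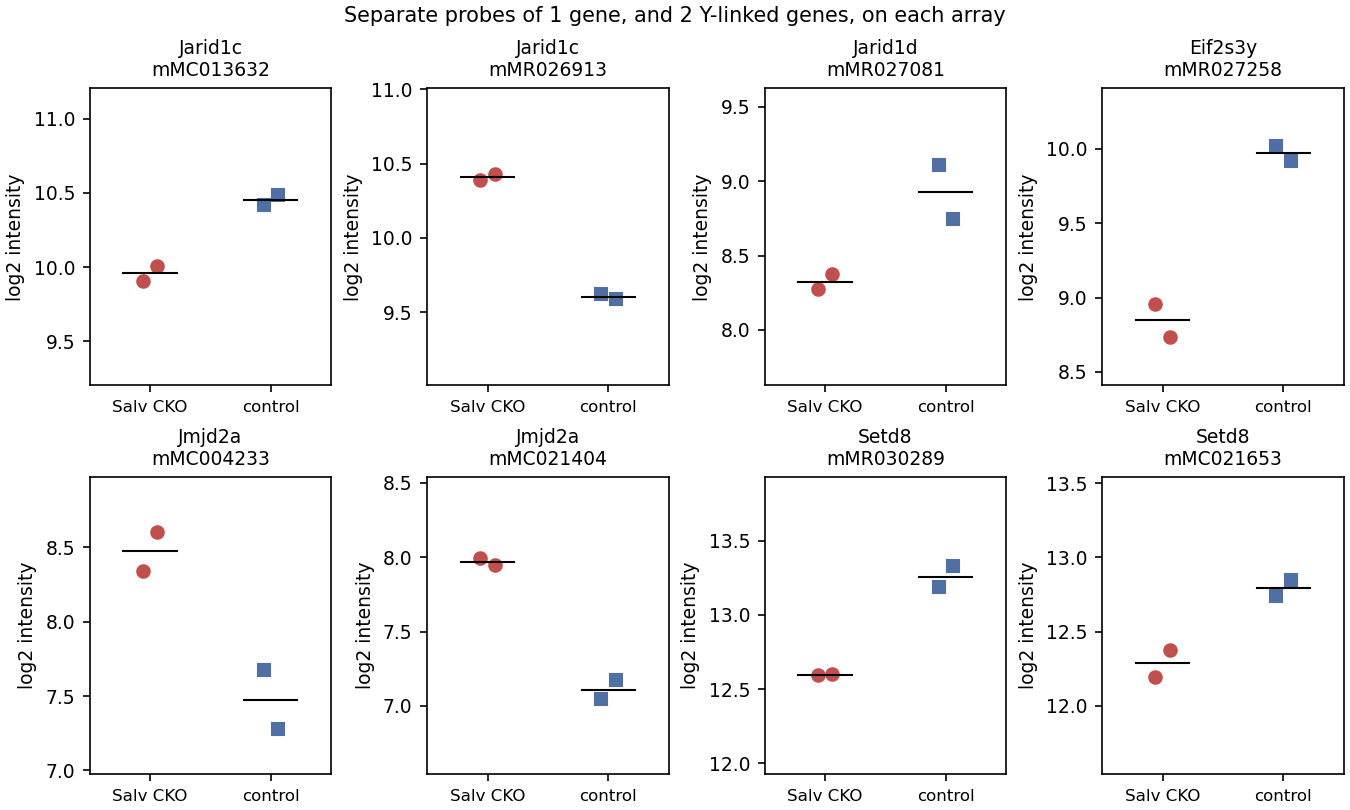
Log2 intensity (y axis, 2 log2 units in every panel) on each array for both probes of Jarid1c, for the Y-linked genes Jarid1d and Eif2s3y, and for the 2 brighter probes of Jmjd2a and Setd8, with Salv CKO (red circles) left of control (blue squares) and lines at the group means. The Jarid1c probes differ in opposite directions, -0.49 and 0.81, while the paired probes of Jmjd2a (1.00 and 0.86) and of Setd8 (-0.66 and -0.51) differ in the same one.

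These enzymes act in complexes, and of 30 measured partner subunits 4 rose and 3 fell. Rbbp4, the histone chaperone shared by PRC2, NuRD and Sin3, was at 13.62 and 13.86 in Salv CKO and 12.48 and 12.42 in control, 2.45-fold higher (1.29 ± 0.10, limma adjusted p = 0.00762). Eed, the PRC2 subunit that binds trimethylated H3K27, rose by 0.65 ± 0.08 (limma adjusted p = 0.0143), at 13.75 and 13.60 against 13.02 and 13.03. Its difference was 0.15 with the values as deposited, and 4 of the 13 alternatives called it. The PRC2 subunit Suz12 was not above background on any array. Sap30 of the Sin3 complex rose by 1.19 ± 0.19, and Chd4, the remodelling ATPase of NuRD, by 0.69 ± 0.08. Its second probe gave 0.62 ± 0.27 and the remaining one was not above background on any array. The mean of the 3 was 0.14 without a call, and Chd4 was called in 3 of the 13 alternatives. Sin3b (-0.85 ± 0.10, with -0.25 ± 0.21 on its other probe), the NuRD subunit Mta2 (-0.37 ± 0.07) and the CpG-binding Compass subunit Cxxc1 (-0.30 ± 0.06) fell. The list's median was 0.01, and 7 of 30 called compares with 10.6% of all genes, from which nothing particular to the list is read.

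Of 29 other acetyltransferases, methyltransferases and demethylases measured, Utx rose and 2 genes fell (10.3% called, against 10.6% of all genes). Crebbp (CBP), a broad histone acetyltransferase and coactivator, was at 9.10 and 9.13 in Salv CKO and 10.43 and 10.53 in control, 2.58-fold lower (-1.36 ± 0.09, limma adjusted p = 0.00717). Its other probes gave -1.85 ± 0.45 and -0.10 ± 0.12, so 2 of the 3 probes lay lower in Salv CKO, the second of them without a call, and the other overlapped between the groups. Its paralogue Ep300 was dim, at 4.94 and 5.30 against 4.78 and 4.65, with no call. Smyd1, a methyltransferase of heart and skeletal muscle, fell by 0.89 ± 0.12 (limma adjusted p = 0.0175; -0.19 ± 0.20 on its other probe), beside heart muscle markers of which 5 of 12 fell. The list's median was -0.07.

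Among 13 readers and processors of methylated DNA 2 rose and 1 fell (23.1% called, against 10.6% of all genes), from which nothing particular to them is read. Zbtb33 (Kaiso), a zinc finger protein that binds methylated CpG, was at 9.62 and 9.83 in Salv CKO and 8.82 and 8.98 in control (0.83 ± 0.13, limma adjusted p = 0.0247), and its other probe was at 10.26 in 1 Salv CKO pool and between 4.50 and 5.18 on the remaining arrays. Mbd4, a glycosylase that repairs deaminated methylcytosine, rose by 0.52 ± 0.10. Its difference was 0.09 with the values as deposited, where the median of all genes was -0.41, and 3 of the 13 alternatives called it. Gadd45b, a stress-response protein linked to DNA demethylation, fell by 0.85 ± 0.13, at 7.80 and 7.91 against 8.74 and 8.67. Uhrf1, which brings Dnmt1 to replicating DNA, overlapped between the groups, at 8.29 and 8.81 against 8.30 and 8.86. The list's median was -0.03.

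**Figure D5:**
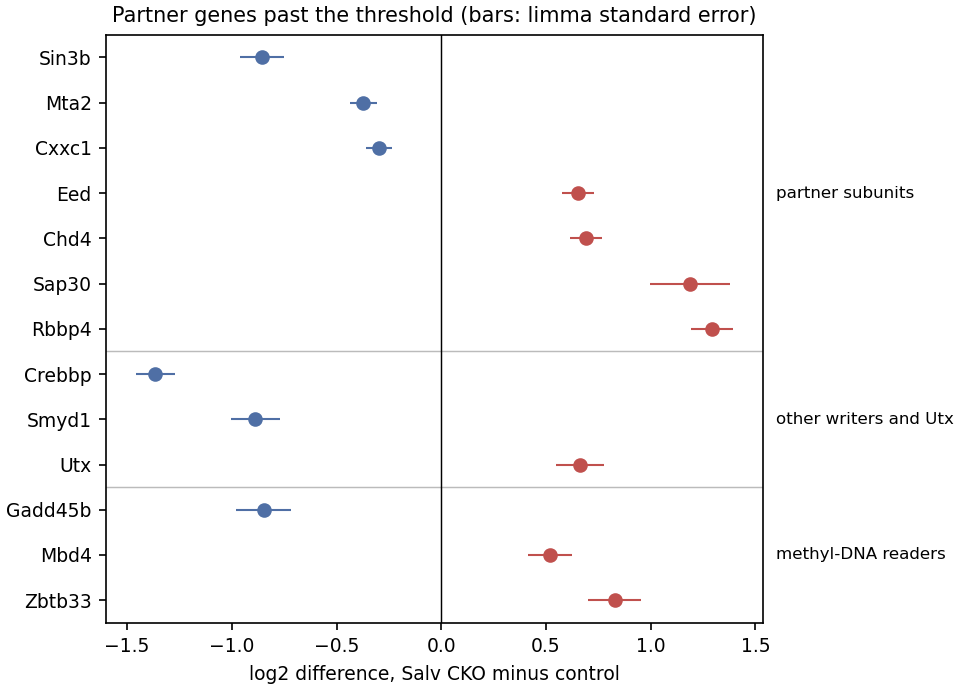
Log2 difference, Salv CKO minus control (x axis), of the 13 called genes from 3 lists (partner subunits, other writers with Utx, methyl-DNA readers), with bars of 1 limma standard error, red for higher and blue for lower. Crebbp at -1.36 and Rbbp4 at 1.29 mark the ends.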

How the data were processed

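Per the labels, heart RNA was amplified, Cy5-labelled through aminoallyl groups and run on 4 arrays, 2 of Salv CKO and 2 of control. The deposited values are linear probe intensities with some below 0, so background-subtracted; scanner, software and scaling are not stated in the labels. The array medians differed, so quantile normalisation (limma 3.58.1, R 4.3.3) was applied across arrays and values were floored at an intensity of 1 and put on the log2 scale. Of 29922 probes, 21020 had 1 gene symbol (annotation of an older date) and 8902 none; the brightest probe of each gene gave 16675 genes. All 61 enzyme symbols were found in RefSeq's gene table of GRCm38.p6, 19 of them as synonyms.

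Genes were tested with lmFit and eBayes (two-sided, with an intensity trend and a prior of 2.92 degrees of freedom) and Benjamini-Hochberg adjustment at 0.05; values of further probes come from the same fit over all probes. Above background meant an intensity over 16, and probes at or next to an array's highest value counted as saturated. The procedure was run on simulated data with independent errors and variances drawn from limma's own fit. Such data hold no pool or cell type effects, so the run cannot test for those. The enzyme genes, the lists and the settings were chosen with earlier results of these data known. The naming rule took called enzyme genes, in each class the brightest gene and that with the lowest p, genes not above background, and called genes of the partner, other-writer and reader lists (at most 4 per list and direction); any other gene named was chosen after its values were seen. Alternatives were 3 other scalings, 2 floors, a filter, probe means, no trend, a replicate block and each array left out. The number of arrays limits the precision.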

Additional observations from a re-analysis of the deposited data

How the results depend on the processing

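Over all genes limma called 1772 genes, 3330 with the values as deposited, 481 and 491 with floors at 16 and 64, 0 without the intensity trend (3578 at an unadjusted p under 0.05) and 0 with any 1 array left out (3170 to 3428). Among the enzyme genes the 6 calls became 10 with arrays centred on their medians, 16 with the values as deposited, 11 with dim genes left out, 3 with probe means, 1 and 0 with floors at 64 and 16 (17 at an unadjusted p under 0.05 with either), 0 without the trend (12) and 0 with any 1 array left out (10 to 13). Of the calls 1 of 10 was higher with median centring, 1 of 7 with 75th percentiles and 0 of 16 as deposited, against 2 of 6. Over all genes the split of higher to lower calls was 821 to 951, 543 to 1835 with median centring, 824 to 1205 with 75th percentiles and 229 to 3101 as deposited. The enzyme genes' median of -0.07 (all genes: -0.04) was -0.19 with arrays centred on their medians (all genes: -0.14), -0.053 with 75th percentiles, -0.46 as deposited (all genes: -0.41), 0 with either floor, -0.017 with dim genes left out, -0.047 with probe means and -0.012 to 0.015 with 1 array left out. A floor gives dim genes identical values and fewer arrays leave fewer degrees of freedom, but the cause was not tested for any of these changes. The sign differed for 25 of the 61 enzyme genes with the values as deposited (4 positive, against 29), for 10 with median centring, 5 with 75th percentiles, 4 with probe means, 1 with either floor and 5 to 11 with 1 array left out. Among genes called on either side these were Jarid1c with probe means (0.16), and Jmjd1a (-0.088) and Jmjd6 (-0.49, called) with the values as deposited. The other called enzyme genes kept their direction under all 13 alternatives.

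The labels do not say whether the replicate numbers pair the pools, and with 2 pools per group the data do not settle it: same-numbered pools deviated from their group means with a correlation of 0.17 over 13295 genes. With the number as a replicate block, 2211 genes and 6 enzyme genes were called, with Hdac10 in place of Jmjd2a. Dim probes limit Ezh2, Hdac9, Dnmt3a, Jmjd1c, Jmjd2c and Jmjd2d.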
